A study of Homo sapiens with 15 samples.

Results

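Genes that mark epithelial and mesenchymal states were followed in breast cancer cells that re-expressed the RNA-binding protein RBM47. They are the 10 of 23368 rows of the count table that carry the names CDH1, EPCAM, ESRP1, CDH2, VIM, ZEB1, ZEB2, SNAI1, SNAI2 and TWIST1, selected by these names. The question was whether RBM47 shifts the epithelial genes against the mesenchymal ones. RNA came from 3 clones of human breast cancer cells, each grown from 1 cell and each carrying a doxycycline-inducible retroviral FLAG-RBM47 transgene. WT6 and WT10 cells carry wild type RBM47, and MUT3 cells carry RBM47-I281fs, a frameshift mutant. The sample labels place all 3 clones in MDA231, a triple negative line, whereas the study's methods derive WT6 from CN34-BrM2, a brain metastatic derivative of another line, and WT10 and MUT3 from a brain metastatic derivative of MDA231. WT6 against WT10 is therefore a comparison of 2 clones whose parental line may differ, and each line is represented by few clones. Every clone was sequenced at 0, 1, 2.5, 5 and 25 ng/ml doxycycline, with 1 poly(A)-selected library per clone and dose. There were no replicates, and the spread around the dose lines, pooled over the 3 clones, stands in for replicate error. MUT3 cells received the same doxycycline and so also served as the control for the drug.

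Epithelial cells hold together through E-cadherin (CDH1) and EPCAM, an adhesion protein of simple epithelia, and splice many transcripts in an epithelial pattern through ESRP1. Mesenchymal cells carry N-cadherin (CDH2) and the intermediate filament protein vimentin (VIM). ZEB1, ZEB2, SNAI1 (Snail), SNAI2 (Slug) and TWIST1 are transcription factors known for repressing CDH1 and other epithelial genes in the transition from an epithelial to a mesenchymal state. MDA231 is commonly classed as a mesenchymal-like line, with high vimentin and little E-cadherin.

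The libraries held between 14955172 and 44771871 reads on genes, with a median of 18152381. Values are normalized counts, that is reads scaled by a size factor estimated for each library. A count of 3 reads, used as the floor, was worth between 1.19 and 4.09 normalized counts. RBM47 itself went from 258 to 10425 normalized counts between 0 and 25 ng/ml in WT6, from 168 to 19877 in WT10 and from 73.8 to 22084 in MUT3, where the row does not separate transgene from endogenous reads. In WT6 the count at 5 ng/ml, 3966, lay below the 8094 at 2.5 ng/ml. The WT6 libraries at 5 and 25 ng/ml also stood apart in transcript length. Relative to the clone's mean, the median log2 value of the 3031 longest genes lay 0.51 and 0.56 below that of the 3029 shortest in these libraries, and 0.32 to 0.39 above it in the other WT6 libraries. The same difference ran from -0.18 to 0.08 in WT10 and from -0.03 to 0.06 in MUT3. WT6 results are therefore also given without these libraries or with the length and GC trends removed.

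The keratins of breast epithelial cells were present in every library, with a summed level of 66901 to 131800 normalized counts in WT6, 20204 to 33631 in WT10 and 21197 to 23751 in MUT3. KRT7 made much of that difference, with at least 41311 in WT6 and at most 176 in WT10. Of the leukocyte markers, PTPRC stayed at or below 6.18 and CD3E was at 0, while CD68 gave 2090 to 5307. The 3 endothelial markers summed to between 4.38 and 11.9. Among fibroblast markers LUM had 1 read in all, whereas DCN gave 190 to 735 in WT6 and at most 1.08 elsewhere. COL1A1 was present in every library, at 178 to 493, and PDGFRB gave 3.75 to 24.9.

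The level of the members spanned a wide range. Lengths here are the union of a gene's annotated exons, 26151 bases for ZEB2 against a transcript of 9265, and 1705 for SNAI1 in both. Comparisons between members depend on this choice of length. Per kilobase of exon, the median over the 5 doses was 9869 normalized counts for VIM in WT6, 17907 in WT10 and 18676 in MUT3. SNAI2 came second among the members in every clone, at 878 in WT6, 307 in WT10 and 179 in MUT3. ZEB1 lay at 52.7, 132 and 124 and EPCAM at 129, 94.4 and 65.9 in the same order of clones. The ranges of ZEB1 and EPCAM over the doses, as normalized counts per kilobase, are drawn beside those of the other members in the plot of levels per length. ZEB2 lay at 7.60, 8.44 and 17.3, and SNAI1 at 27.0, 8.39 and 4.31. CDH1, CDH2 and ESRP1 were below 2.5 normalized counts per kilobase in the median of every clone. TWIST1 was listed at 0 in all 15 libraries. Without doxycycline CDH1 thus had at most 1 read in each clone, while VIM had at least 53412 normalized counts.

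**Figure D1:**
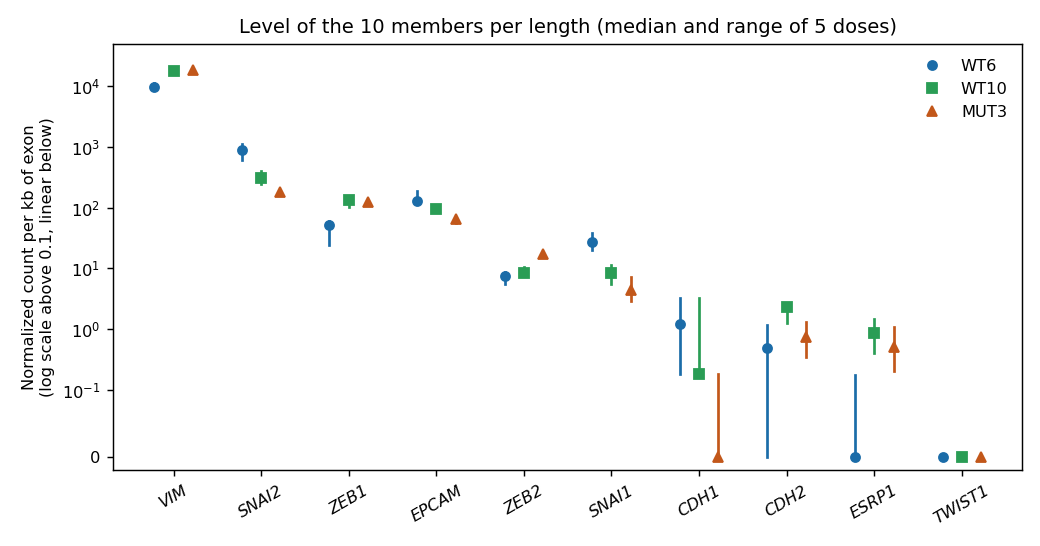
Level of the 10 members per kilobase of exon (union of annotated exons) in each clone. Points are medians and lines the range over the 5 doses, in normalized counts per kilobase on a scale that is logarithmic above 0.1 and linear below. VIM lies far above the others, at 9869 to 18676, and TWIST1 is at 0 in every clone.

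The change with dose was tested with limma in one fit of all 15 libraries. The slope is the change in log2(normalized count + 1) for each unit of log2(dose + 1), so that the step from 0 to 1 ng/ml is 1 unit. Only genes with a mean of at least 10 normalized counts in each clone were fitted, 12644 in all. Of the members 5 passed this filter (EPCAM, VIM, ZEB1, ZEB2 and SNAI2), and the other 5 were too low in at least 1 clone. A gene was called when its Benjamini-Hochberg adjusted p over all genes fitted was under 0.05.

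Of the 5 fitted members 2 were called in WT6, SNAI2 upward and ZEB1 downward. Over all genes 57.5% were called in WT6, 29.2% rising and 28.3% falling, so that 2 of 5 was no more than the background. In WT10 1 of 5 was called, SNAI2 upward, against 20.0% of all genes, 10.2% rising and 9.83% falling. In MUT3 limma called 0 of 5 members and 0% of all genes, with 0 members and 295 genes at an unadjusted p under 0.05. The edgeR and DESeq2 tests also called 0 members in MUT3, and each had 0 at an unadjusted p under 0.05. The median slope of the 4 fitted mesenchymal members was -0.05 in WT6, -0.05 in WT10 and 0.01 in MUT3, against all-gene medians of 0.01, -0.00 and 0.00.

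**Figure D2:**
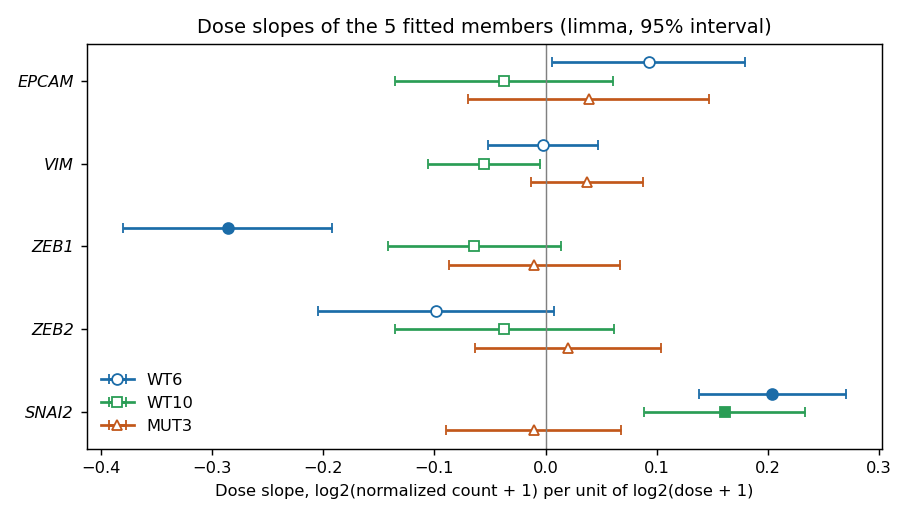
Dose slopes of the 5 fitted members in each clone, in log2(normalized count + 1) per unit of log2(dose + 1), with 95% intervals from limma. Filled points passed an adjusted p of 0.05, namely SNAI2 in WT6 and WT10 (0.20 and 0.16) and ZEB1 in WT6 (-0.29), and no MUT3 point did.

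E-cadherin (CDH1, ENSG00000039068, hg19 chr16:68771195-68869440, plus strand) was close to absent without doxycycline and was detected in both wild type clones at the top dose. In WT6 its normalized counts were 1.10, 7.21, 8.53, 5.45 and 19.9 at 0, 1, 2.5, 5 and 25 ng/ml. In WT10 they were 1.08, 0.964, 0.997, 1.99 and 19.7. MUT3 gave 0, 1.11, 0, 0.919 and 0. The 25 ng/ml libraries of the wild type clones were thus the highest of their clones, and in WT10 the 4 lower doses stayed under the floor or at 5 reads. In reads, CDH1 went from 1 to 16 in WT6 and from 1 to 19 in WT10, and MUT3 had 2 reads over 5 libraries. The ratio of 25 to 0 ng/ml was 18.2 in both wild type clones, with 95% intervals of counting error from 2.83 to 763 in WT6 and from 2.89 to 756 in WT10.

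CDH1 missed the filter and was tested in other ways. An exact two-sided permutation test of the slope over the 5 doses, which allows no p under 0.00833, gave slopes of 0.58 in WT6 (unadjusted p = 0.0917) and 0.73 in WT10 (unadjusted p = 0.0417). The MUT3 slope was -0.04 (exact p = 0.80). Such tests were made for 4 low members in 3 clones, 12 in all, and their p-values are not adjusted for that number. With edgeR on the recovered reads and no filter, which called 37.2% of all genes in WT6, 13.4% in WT10 and 0.0206% in MUT3, CDH1 rose in WT6 (slope 0.55, adjusted p = 0.0117) and in WT10 (slope 1.23, adjusted p = 0.000807). Under the same edgeR fit, in which 3.05% of genes were called for this contrast, the WT10 slope lay 1.38 above that of MUT3, which was not called (adjusted p = 0.321). The WT10 call rests on the single library at 25 ng/ml. At its highest, CDH1 reached 3.28 normalized counts per kilobase in WT6 and 3.24 in WT10. This remained under the lowest EPCAM median of 65.9 on that scale.

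EPCAM (ENSG00000119888, chr2:47572297-47614740, plus strand) did not pass the test in any clone. Its normalized counts in WT6 were 288, 301, 315, 456 and 366 from 0 to 25 ng/ml. In WT10 they were 241, 230, 229, 217 and 213. MUT3 gave 136, 173, 160, 154 and 168. The 3 clones did not overlap, WT6 being the highest and MUT3 the lowest at every dose. The WT6 slope was 0.09 ± 0.04 (SE, limma adjusted p = 0.0634), with the library at 5 ng/ml above the rest. Without that library it was 0.07 (limma adjusted p = 0.0248), and without the library at 25 ng/ml it was 0.24 (limma adjusted p = 0.0130). With length and GC trends removed the WT6 slope was -0.02 (limma adjusted p = 0.475). The WT10 slope was -0.04 ± 0.05 (limma adjusted p = 0.621), and -0.08 with these trends removed (limma adjusted p = 0.0386).

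ESRP1 (ENSG00000104413, chr8:95653302-95719694, plus strand), the epithelial splicing regulator, was at 0 in 4 of the WT6 libraries and had 1 read in the other. In WT10 it gave 5.41, 1.93, 6.98, 3.97 and 4.14 normalized counts, and in MUT3 2.50, 3.33, 0.988, 1.84 and 5.24. No change with dose was detectable at this depth, and the exact permutation p was at least 0.49 in each clone. Its paralog ESRP2, with the same function, was present throughout, at 500 to 618 normalized counts in WT6, 239 to 268 in WT10 and 196 to 226 in MUT3. By limma ESRP2 fell slightly in WT6 (slope -0.07, adjusted p = 0.0375), from 613 to 500, a call that was lost with edgeR (adjusted p = 0.0531), DESeq2 (adjusted p = 0.0689) and without WT6 at 25 ng/ml (adjusted p = 0.508), and also without WT6 at 0 ng/ml (adjusted p = 0.0546), WT6 at 1 ng/ml (adjusted p = 0.0742) or MUT3 at 2.5 ng/ml (adjusted p = 0.0516).

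**Figure D3:**
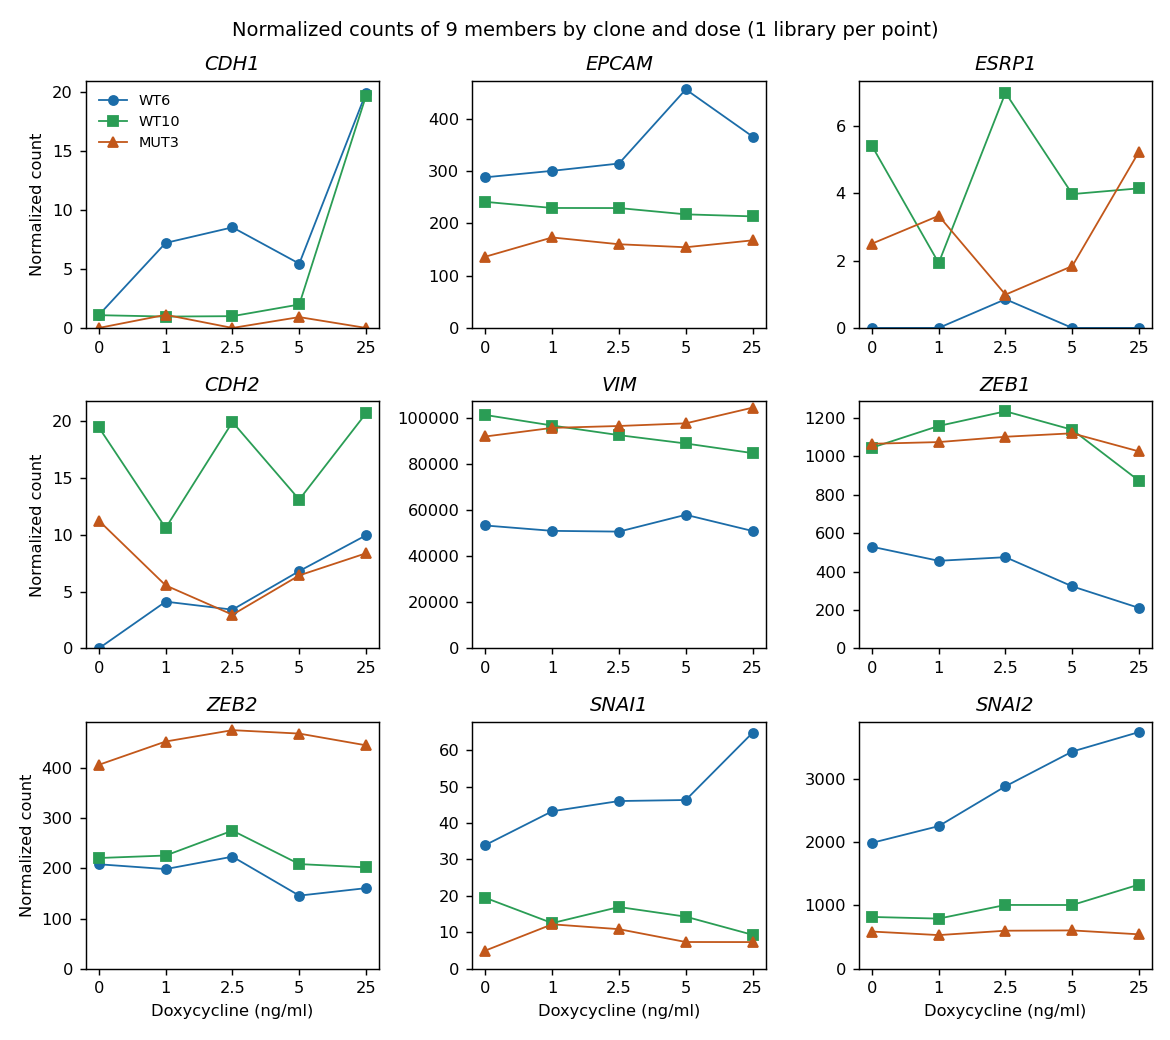
Normalized counts of the 9 members with reads, by clone and doxycycline dose (ng/ml, doses evenly spaced), 1 library per point. CDH1 reaches 19.9 in WT6 and 19.7 in WT10 at 25 ng/ml, SNAI2 climbs from 1987 to 3736 in WT6, and ZEB1 drops from 529 to 211 in WT6.

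Vimentin (VIM, ENSG00000026025, chr10:17270240-17279592, plus strand) remained the most abundant member at every dose. Its normalized counts in WT6 were 53412, 51083, 50755, 58065 and 51026. In WT10 they were 101456, 96872, 92688, 89061 and 84886, lower at each dose than at the one before. MUT3 gave 92105, 95850, 96668, 97821 and 104639, higher at each dose than at the one before. None of the slopes passed the test, at -0.00 ± 0.02 in WT6 (limma adjusted p = 0.943), -0.06 ± 0.02 in WT10 (limma adjusted p = 0.110) and 0.04 ± 0.02 in MUT3 (limma adjusted p = 1.00). The WT10 slope lay 0.09 below that of MUT3 (95% interval -0.16 to -0.02, limma adjusted p = 0.112). This difference was called by DESeq2 (adjusted p = 0.0348) and with length and GC trends removed (limma adjusted p = 0.0135). With the trends removed VIM was also called downward in WT6 (slope -0.08, limma adjusted p = 0.000728) and WT10 (slope -0.06, limma adjusted p = 0.00854). The ratio of 25 to 0 ng/ml was 0.955 in WT6, 0.837 in WT10 and 1.14 in MUT3. An antisense gene, VIM-AS1, overlaps VIM on the other strand, and reads of the 2 genes can be told apart only if the libraries kept the strand, which the sources used here do not state.

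N-cadherin (CDH2, ENSG00000170558, chr18:25512843-25757910, minus strand) was low in all clones. It gave 0, 4.12, 3.41, 6.81 and 9.97 normalized counts in WT6, that is from 0 to 8 reads. The count at 25 ng/ml lay 3.03-fold above the 3-read floor of the untreated library, and the lower 95% limit of counting error on the ratio was 1.94. In WT10 it gave 19.5, 10.6, 19.9, 13.1 and 20.7, and in MUT3 11.3, 5.55, 2.97, 6.43 and 8.38. WT10 lay above WT6 in every library. The WT6 slope was 0.64 with an exact permutation p of 0.075, and was called by limma with no filter (adjusted p = 0.00448) but not by edgeR with no filter (adjusted p = 0.0502). Within WT6, E-cadherin and N-cadherin reads were thus both at their highest at 25 ng/ml, with 16 and 8 reads.

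ZEB1 (ENSG00000148516, chr10:31607424-31818742, plus strand) fell with dose in WT6 and did not pass the test in WT10 or MUT3. Its normalized counts in WT6 were 529, 456, 475, 323 and 211. In WT10 they were 1045, 1158, 1235, 1138 and 872. In MUT3 they were 1065, 1074, 1102, 1120 and 1026. WT6 lay below the other clones in every library, and the 25 ng/ml library was the lowest of each clone. The WT6 slope was -0.29 ± 0.04 (limma adjusted p = 0.000120), and the ratio of 25 to 0 ng/ml was 0.398 (95% interval of counting error 0.332 to 0.475). In WT10 the slope was -0.06 ± 0.04 (limma adjusted p = 0.235) and the ratio 0.835 (0.760 to 0.917). In MUT3 the slope was -0.01 ± 0.04 (limma adjusted p = 1.00) and the ratio 0.963.

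The ZEB1 slope of WT6 lay 0.22 below that of WT10 (95% interval -0.34 to -0.10, limma adjusted p = 0.0262), where 14.4% of all genes were called and 1 of 5 members. The fall of ZEB1 in WT6 rests on the libraries at 5 and 25 ng/ml, since without them the slope was -0.09 (limma adjusted p = 0.698). In that setting 1.44% of all genes were called in WT6. The transcript length used for ZEB1 was 5937 bases, against 2180 for SNAI2. With the length and GC trends removed, the WT6 slope of ZEB1 was -0.20 (limma adjusted p = 3.25e-05), that of WT10 was -0.07 (limma adjusted p = 0.00885), and the difference was -0.13 (limma adjusted p = 0.0247). The part of the length trend in the uncorrected slope was not tested further. The difference between the clones was no longer called without WT6 at 25 ng/ml (-0.17, limma adjusted p = 0.181) or without WT10 at 0 ng/ml (-0.16, limma adjusted p = 0.152). In these settings 0.577% and 0.467% of all genes were called for this contrast. ZEB1-AS1, antisense to ZEB1, gave 60.7 to 77.2 normalized counts in WT6, 139 to 149 in WT10 and 105 to 140 in MUT3. From 0 to 25 ng/ml the WT6 values of ZEB1-AS1 were 65.8, 60.7, 63.9, 65.4 and 77.2, and no test of them is given. As with VIM-AS1, its reads can be told from those of the gene it overlaps only if the libraries kept the strand.

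ZEB2 (ENSG00000169554, chr2:145121931-145278624, minus strand) was not called with dose. Its normalized counts were 208, 199, 223, 146 and 161 in WT6 and 221, 226, 275, 209 and 202 in WT10. In MUT3 they were 406, 453, 475, 469 and 445, above both wild type clones in every library. The WT6 slope was -0.10 ± 0.05 (limma adjusted p = 0.103), with the lowest values at 5 and 25 ng/ml, and 0.02 with length and GC trends removed (limma adjusted p = 0.678). The slopes in WT10 and MUT3 were -0.04 ± 0.05 and 0.02 ± 0.04.

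ZEB1 and ZEB2 messages are known targets of the miR-200 family, microRNAs of epithelial cells that the ZEB proteins repress in turn. The mature sequences are shown, with the seed (bases 2 to 8) in capitals, because 2 seeds divide the family and both are known to pair with ZEB1 and ZEB2 messages. They are taken from RefSeq (GRCh38.p14), where the 5 genes lie on chromosomes 1 and 12.
hsa-miR-141-3p: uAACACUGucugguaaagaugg
hsa-miR-200a-3p: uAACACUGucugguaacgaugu
hsa-miR-200b-3p: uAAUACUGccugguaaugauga
hsa-miR-200c-3p: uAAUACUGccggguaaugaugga
hsa-miR-429: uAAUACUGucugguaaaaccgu

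The first pair share the seed AACACUG and the other 3 the seed AAUACUG. The rows of these genes in the table held 1 read over the 15 libraries, on the gene of hsa-miR-200b-3p, and 0 on the other 4. Poly(A) libraries do not capture mature microRNAs, so these counts say nothing of their level.

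SNAI1 (ENSG00000124216, chr20:48599517-48605423, plus strand) had slopes of opposite sign in the wild type clones. It gave 34.0, 43.2, 46.0, 46.3 and 64.8 normalized counts in WT6, higher at each dose than at the one before. In WT10 it gave 19.5, 12.5, 17.0, 14.3 and 9.33, and in MUT3 5.00, 12.2, 10.9, 7.35 and 7.33. The MUT3 mean missed the filter. The WT6 slope was 0.18 with an unadjusted exact permutation p of 0.00833, the smallest that 5 doses allow and 1 of 12 such tests, and was called by limma with no filter (adjusted p = 0.0369) but not by edgeR with no filter (adjusted p = 0.0576). The WT10 slope was -0.18 (exact permutation p = 0.075). The difference between the clones was not called by limma with no filter (0.35, adjusted p = 0.0801). The ratio of 25 to 0 ng/ml was 1.91 in WT6 (95% interval of counting error 1.20 to 3.08) and 0.479 in WT10 (0.190 to 1.12).

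SNAI2 (ENSG00000019549, chr8:49830157-49834299, minus strand), a mesenchymal factor, was the only one of the 5 fitted members called in both wild type clones, and it rose. Its normalized counts in WT6 were 1987, 2251, 2880, 3428 and 3736, higher at each dose than at the one before. In WT10 they were 818, 792, 1007, 1007 and 1329. MUT3 gave 588, 532, 601, 606 and 544. The clones did not overlap, WT6 being the highest and MUT3 the lowest. The slope was 0.20 ± 0.03 in WT6 (limma adjusted p = 0.000105), 0.16 ± 0.03 in WT10 (limma adjusted p = 0.00463) and -0.01 ± 0.04 in MUT3 (limma adjusted p = 1.00). The ratio of 25 to 0 ng/ml was 1.88 in WT6 (95% interval of counting error 1.77 to 1.99), 1.63 in WT10 (1.48 to 1.78) and 0.925 in MUT3 (0.815 to 1.05).

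The SNAI2 slope of WT10 exceeded that of MUT3 by 0.17 (95% interval 0.06 to 0.28), which missed the threshold (limma adjusted p = 0.0579). Over all genes limma called 5.62% for this contrast, edgeR 5.34% and DESeq2 8.67%. Of the members limma and edgeR called 0 of 5 and DESeq2 called 2 of 5, SNAI2 (adjusted p = 0.0237) and VIM. By limma 2 members had an unadjusted p under 0.05. With length and GC trends removed the SNAI2 difference was 0.13 (limma adjusted p = 0.0326), and without WT6 at 2.5, 5 or 25 ng/ml it was also called. In the same order these settings called 18.6%, 7.63%, 17.9% and 8.55% of all genes. The WT6 libraries enter this contrast only through the pooled spread and the weights. The WT10 call of SNAI2 was lost without the library at 25 ng/ml, where the slope was 0.14 (limma adjusted p = 0.328). In that setting 6 of the 12644 genes fitted were called in WT10. The slopes of WT6 and WT10 differed by 0.04 (95% interval -0.06 to 0.14, limma adjusted p = 0.525). With length and GC trends removed the slopes were 0.14 in WT6 (limma adjusted p = 3.95e-05) and 0.12 in WT10 (limma adjusted p = 0.00173).

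TWIST1 (ENSG00000122691, chr7:19060614-19157259, minus strand) was listed at 0 everywhere, while 3962 of the 23368 genes were at 0 in all libraries. The annotation and the strandedness of the libraries are not given in the sources used here. A listed 0 therefore does not show that TWIST1 was silent.

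Before doxycycline the clones already differed in these genes. By the fitted intercepts, 3 of 5 members were called between WT6 and WT10, where 59.6% of all genes were. SNAI2 was higher in WT6 by 1.43 on the log2 scale (limma adjusted p = 9.52e-08). VIM was lower in WT6 by 0.92 (log2 difference -0.92, limma adjusted p = 2.45e-07) and ZEB1 by more (log2 difference -1.06, limma adjusted p = 9.96e-06). EPCAM and ZEB2 were not called, at 0.33 and -0.16. Between WT10 and MUT3, where 28.2% of all genes were called, EPCAM was higher in WT10 by 0.67 (limma adjusted p = 0.0108) and SNAI2 by 0.42 (limma adjusted p = 0.0271), while the log2 difference of ZEB2 was -0.88 (limma adjusted p = 0.000682). VIM and ZEB1 were not called, at 0.12 each. The calls of EPCAM and SNAI2 were both lost without WT10 at 0 ng/ml, at 0.65 (limma adjusted p = 0.0544) and 0.34 (limma adjusted p = 0.153), and without MUT3 at 0 ng/ml, at 0.53 (limma adjusted p = 0.124) and 0.43 (limma adjusted p = 0.103). SNAI2 also lost its call without WT10 at 2.5 ng/ml (0.39, limma adjusted p = 0.0534) or MUT3 at 1 ng/ml (0.36, limma adjusted p = 0.0930). Each comparison sets 1 clone against 1 clone, and differences between clones of any origin cannot be told apart from those of line or transgene.

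Further epithelial genes gave a wider view. Of 39 listed genes of tight junctions, desmosomes, keratins and epithelial regulators, 25 were fitted. In WT6 12 rose, 4 fell and 9 were not called, against 29.2% of all genes rising and 28.3% falling, with a median slope of 0.11 against 0.01 over all genes. The 16 of 25 called in either direction lay close to the background of 57.5%. In WT10 9 rose, 0 fell and 16 were not called, against 10.2% and 9.83% of all genes, with a median of 0.07 against -0.00. In MUT3 0 were called, with a median of 0.05 against 0.00. For WT10 minus MUT3 limma called 0 of the 25, and 5.62% of all genes, with a median difference of 0.04 against -0.00. A total of 6 genes rose in both wild type clones, and 0 fell in both. The share of all genes called in both clones is not given here, so this count has no background beside it. The genes that fell in WT6, named after their values were seen, were ESRP2 and 3 others. TJP1, the tight junction scaffold ZO-1, went from 1920 to 1021 (slope -0.20, limma adjusted p = 0.000108), and its slope was -0.11 with length and GC trends removed (limma adjusted p = 0.000127). CGN, the junction protein cingulin, went from 61.4 to 34.9 (slope -0.17, limma adjusted p = 0.0236), and was not called with these trends removed (slope -0.11, limma adjusted p = 0.129) or without WT6 at 25 ng/ml (slope -0.07, limma adjusted p = 0.581). MAL2, a protein of apical transport, went from 352 to 237 (slope -0.13, limma adjusted p = 0.00833), and was not called without WT6 at 25 ng/ml (slope -0.13, limma adjusted p = 0.120). In WT10 MAL2 was called in the other direction, from 29.2 to 57.0 (slope 0.20, limma adjusted p = 0.0477). That WT10 call held under 9 of 26 alternatives.

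Of the genes that rose in both wild type clones, the tight junction protein gene CLDN7 had the largest slopes. They were 0.54 ± 0.07 in WT6 (limma adjusted p = 2.02e-05) and 0.22 ± 0.06 in WT10 (limma adjusted p = 0.0214). CLDN7 normalized counts were 152, 216, 182, 482 and 800 in WT6 and 308, 294, 339, 346 and 604 in WT10, against 302 to 403 in MUT3. KRT18, a keratin of simple epithelia, went from 10240 to 24036 in WT6 and from 9183 to 15294 in WT10 between 0 and 25 ng/ml, with slopes of 0.29 and 0.16. Its partner KRT8 went from 13843 to 31010 and from 11288 to 16573, with slopes of 0.26 and 0.12. The WT10 call of KRT8 (limma adjusted p = 0.0380) held under 15 of 26 alternatives, and its slope was -0.0354 without 25 ng/ml. In MUT3 KRT8 went from 8159 to 9624 (slope 0.05). That slope was called only with each clone fitted alone (limma adjusted p = 0.0361). F11R, the junctional adhesion molecule JAM-A, went from 930 to 1532 and from 524 to 948, with slopes of 0.16 and 0.17. With length and GC trends removed the WT6 slopes were 0.41 for CLDN7, 0.15 for KRT18, 0.14 for KRT8 and 0.22 for F11R. In WT10 the 25 ng/ml library was the highest for each of these genes, and without it limma called 0 of the 25 genes and 6 of the 12644 genes fitted. Without WT6 at 25 ng/ml 6 of the 25 genes were called in WT6, against 36.6% of all genes. Without WT6 at 5 and 25 ng/ml 0 were, against 1.44% of all genes. The epithelial regulators GRHL2, OVOL1, OVOL2 and RAB25 had at most 5 reads each over all libraries. Other listed regulators were present. EHF gave 53.1 to 71.0 normalized counts in WT6, 378 to 709 in WT10 and 843 to 1227 in MUT3. ELF3 reached 12.5 in WT6 and 7.25 in WT10 at 25 ng/ml, and at most 1.11 in MUT3.

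Further mesenchymal genes moved both ways. Of 38 listed matrix, cytoskeletal and regulator genes, 24 were fitted. In WT6 7 rose, 10 fell and 7 were not called, with a median slope of -0.03 against 0.01 over all genes, of which 29.2% rose and 28.3% fell. In WT10 3 rose, 5 fell and 16 were not called, also with a median of -0.03, against -0.00 over all genes, where 10.2% were called rising and 9.83% falling. In MUT3 0 were called, with a median of 0.04 against 0.00. For WT10 minus MUT3 0 were higher and 4 lower, where 5.62% of all genes were called, with a median difference of -0.06 against -0.00. In both wild type clones 4 genes fell and 1 rose, again without a share over all genes to set beside these counts.

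Fibronectin (FN1), a matrix glycoprotein of mesenchymal cells, fell the most, from 21189 to 8889 normalized counts in WT6 and from 2781 to 862 in WT10, with slopes of -0.31 and -0.38 (limma adjusted p = 0.000904 and 0.00120). In MUT3 it stayed between 1987 and 2088. The receptor tyrosine kinase gene AXL went from 25419 to 12303 and from 19567 to 13550, with slopes of -0.24 and -0.12. LOXL2, a collagen cross-linking enzyme, had slopes of -0.19 and -0.11, and MSN, the membrane linker moesin, had slopes of -0.13 and -0.11. With length and GC trends removed the WT6 slopes were -0.21 for FN1, -0.18 for AXL, -0.17 for LOXL2 and -0.09 for MSN. By limma the collagen receptor gene DDR2 rose in both wild type clones, from 10.96 to 31.1 in WT6 and from 7.57 to 21.8 in WT10. Its slopes were 0.30 and 0.25. In MUT3 DDR2 had a slope of 0.30 as well (limma adjusted p = 1.00), from 5.00 to 16.8. The WT10 call of DDR2 was lost under 10 of 26 alternatives, among them edgeR (adjusted p = 0.0664), DESeq2 (adjusted p = 0.164) and leaving out WT10 at 0 ng/ml (slope 0.15, limma adjusted p = 0.295), at 1 ng/ml, at 5 ng/ml (limma adjusted p = 0.0556) or at 25 ng/ml (slope 0.41, limma adjusted p = 0.235). In WT6 it was lost without WT6 at 25 ng/ml (slope 0.27, limma adjusted p = 0.188). TAGLN, a smooth muscle actin-binding protein gene chosen after its values were seen, rose in WT6 (slope 0.16, limma adjusted p = 0.0162) and fell in WT10 (slope -0.28, limma adjusted p = 0.000826). Without WT10 at 25 ng/ml 0 of the 24 genes were called in WT10, and without WT6 at 5 and 25 ng/ml 1 was called in WT6, in the settings where 6 of 12644 and 1.44% of all genes were called.

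**Figure D4:**
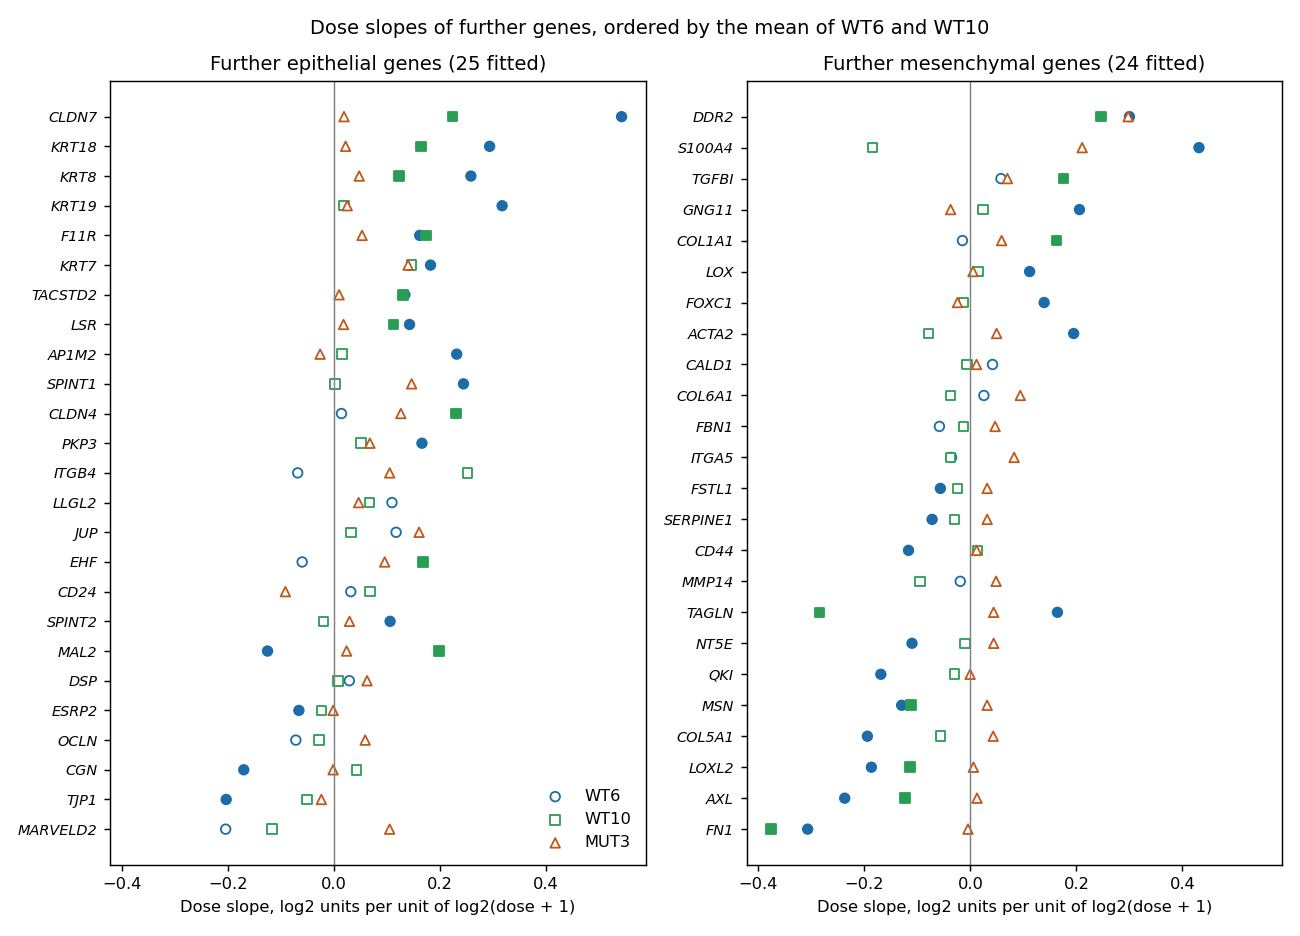
Dose slopes of 25 further epithelial and 24 further mesenchymal genes in each clone, in log2 units per unit of log2(dose + 1), with filled symbols where limma called the gene. CLDN7 has the largest epithelial slope in WT6 (0.54), FN1 the lowest mesenchymal slope in WT10 (-0.38), and no MUT3 symbol is filled.

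The genes whose pattern was most like that of the called members were found by Pearson's correlation of log2 values centred on each clone's mean, over 15 libraries and 12644 genes, given as a description. For ZEB1 they were SF3B1 (r = 0.991), LRPPRC (0.991) and CAND1 (0.990). For SNAI2 they were STX3 (0.971), RNF170 (0.968) and HHAT (0.967). The 15 libraries include those of WT6 at 5 and 25 ng/ml, whose length trend is described above and was not removed here. In these bulk samples, fewer cells of a state and less RNA per cell cannot be told apart.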

How the data were processed

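RNA-seq of 15 libraries (3 clones at 5 doxycycline doses, 1 library each) was used, grouped by the sample labels. The authors aligned reads to hg19 with STAR, counted them with HTSeq 0.5.4 at default settings and divided by DESeq size factors. They deposited the resulting normalized signal for 23368 genes and 5 HTSeq tallies. The tallies were left out, and the one of reads on no gene held 56.5% to 59.6% of a library. The annotation used is not given in the sources used here. Whole reads were recovered from 100% of values (tolerance 0.001).

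The members and gene lists were chosen with earlier results of these data known. The design allowed for raw counts. Since the file holds normalized values, limma 3.58.1 (R 4.3.3) was used on log2(normalized count + 1), with vooma weights and an intercept and slope on log2(dose + 1) for each clone, leaving 9 residual degrees of freedom. Genes with a mean of at least 10 in each clone were fitted, after tests on simulated data. edgeR 4.0.16 and DESeq2 1.42.0 on recovered reads, other filters, pseudocounts and scalings, and leaving out libraries, were alternatives. Low members had exact permutation tests of the slope. Named list genes were those called in both WT6 and WT10 with the same sign, up to 4 in each direction by mean slope. Symbols were matched to GENCODE 44 on hg19 (92.0%), which gave positions and lengths. Ratios carry conditional binomial intervals, and intervals and floors cover counting error only. Doses of 1 clone are not replicates. The p-values of the fits over all clones rest on the spread around the 3 dose lines, pooled over the clones, which may be technical.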

Additional observations from a re-analysis of the deposited data

Results flagged for a closer look

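The ZEB1 dose slope differed between the 2 wild type clones, by a test of the difference itself in limma (WT6 minus WT10 -0.22, adjusted p = 0.0262). ZEB1 fell in WT6 and was not called in WT10, where its slope was also below 0 (-0.06). The difference was called under 22 of 27 alternatives. It was not called without WT6 at 25 ng/ml (limma adjusted p = 0.181), without WT10 at 0 ng/ml (limma adjusted p = 0.152), without the 25 ng/ml libraries (limma adjusted p = 0.132), without WT6 at 5 and 25 ng/ml (limma adjusted p = 0.989) or with log2 RBM47 in place of dose (limma adjusted p = 0.775). In the same order these settings called 0.577%, 0.467%, 0.0554%, 0.0475% and 0% of all genes for this contrast. The main fit called 14.4%. The WT6 libraries at 5 and 25 ng/ml carry a trend with transcript length, and the difference was -0.13 (limma adjusted p = 0.0247) with length and GC trends removed.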

How the results depend on the processing

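No paired analysis was possible because the labels carry no replicate numbers, and the doses that the clones share are the condition tested and entered each fit as the covariate. The number of members called moved as follows, out of 5 tested, or of 9 where no filter was used. In WT6, 2 members were called, against 5 with no filter and 0 with log2 RBM47 in place of dose. By Pearson's correlation with the RBM47 count, at an unadjusted p under 0.01, 0 were called. The number was 1 without WT6 at 5 and 25 ng/ml (an alternative chosen after seeing the data) and 2 to 3 with single libraries left out. In WT10, 1 was called, against 2 with no filter, 0 with log2 RBM47, 2 by DESeq2, 4 with length and GC trends removed, 2 by edgeR with no filter (also added after seeing the data), 0 without 25 ng/ml, 2 with each clone fitted alone, 0 by Pearson's correlation and 0 to 2 with single libraries left out. In MUT3, 0 were called, against 1 with each clone fitted alone, VIM upward, and 0 to 0 with single libraries left out. For WT10 minus MUT3, 0 were called, against 2 by DESeq2, 2 with the trends removed and 0 to 2 with single libraries left out. For WT6 minus WT10, 1 was called, against 0 with log2 RBM47, 0 without 25 ng/ml, 0 without WT6 at 5 and 25 ng/ml and 0 to 2 with single libraries left out. For levels without doxycycline, 3 were called between WT6 and WT10, against 6 with no filter, 5 with the trends removed, 6 by edgeR with no filter and 3 to 4 with single libraries left out, and 3 between WT10 and MUT3, against 1 to 3. The 16 further epithelial genes called in WT6 became 0 with log2 RBM47, 7 without 25 ng/ml, 0 without WT6 at 5 and 25 ng/ml and 6 to 18 with single libraries left out. The 9 in WT10 became 0 with log2 RBM47, 5 with no precision weights, 0 without 25 ng/ml and 0 to 10, with 0 without WT10 at 25 ng/ml and 5 without WT10 at 1 ng/ml. The 0 in MUT3 became 4 with each clone fitted alone, and 0 to 0. The 17 further mesenchymal genes called in WT6 became 0 with log2 RBM47, 1 without WT6 at 5 and 25 ng/ml, 8 with each clone fitted alone and 12 to 18 with single libraries left out. The 8 in WT10 became 0 with log2 RBM47, 0 without 25 ng/ml and 0 to 10, with 5 without WT10 at 1 ng/ml. The 0 in MUT3 became 3 with each clone fitted alone, and 0 to 0. The KRT8 dose slope in WT10 turned to -0.0354 without 25 ng/ml, and ran from -0.0355 (without WT10 at 25 ng/ml) to 0.189 (without WT10 at 0 ng/ml) with single libraries left out. The share of all genes called moved too. In WT10 it was 20.0%, and became 36% with the trends removed, 22% by DESeq2, 28.4% with each clone fitted alone, 13.2% with no filter and 0.134% without 25 ng/ml. In WT6 it was 57.5%, and became 39.1% with no filter, 37.1% without 25 ng/ml, 1.44% without WT6 at 5 and 25 ng/ml and 31.2% with each clone fitted alone. In MUT3 it was 0%, and became 1.39% with each clone fitted alone. For WT10 minus MUT3 it was 5.62%, and became 18.6% with the trends removed and 8.67% by DESeq2. For WT6 minus WT10 it was 14.4%, and became 0% with log2 RBM47 and 0.0554% without 25 ng/ml. Without WT6 at 5 and 25 ng/ml that share was 0.0475%. For levels between WT6 and WT10 it was 59.6%, and became 45.3% with no filter and 70.1% with the trends removed. With log2 RBM47 as the covariate, limma called 2 of all genes in WT6 and 89 in WT10, so the 0 members there do not stand apart from the rest. The CGN dose slope in WT6 turned to 0.0315 without WT6 at 5 and 25 ng/ml. The cause of these changes was not tested. The level comparison was not run with the RBM47 covariate. With 1 library per condition, changes in members of under 20 reads were limited by depth.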

Other observations

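The table holds 23 rows of cadherin genes, of which 3 were fitted. CDH4 (R-cadherin), chosen after its values were seen, was called in both wild type clones. Its normalized counts fell with dose from 2630 through 2189, 1680 and 1263 to 661 in WT6 and from 3189 through 2756, 2419 and 1916 to 1262 in WT10. In MUT3 they were 3145, 2890, 3355, 2962 and 2909. The slopes were -0.43 ± 0.03 in WT6 (limma adjusted p = 2.90e-07) and -0.29 ± 0.03 in WT10 (limma adjusted p = 1.01e-05), against -0.02 ± 0.03 in MUT3. The slope of WT10 differed from that of MUT3 by -0.27 (limma adjusted p = 0.00264). With length and GC trends removed the slopes were -0.35 in WT6 and -0.24 in WT10. CDH18 was called in WT6 only (slope -0.18, limma adjusted p = 0.0010), and CDH24 in neither clone. The difference of CDH18 between the wild type clones was not called (limma adjusted p = 0.213).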
